A study of Mus musculus with 12 samples.

Results

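Kruppel-like factors (KLFs) are transcription factors with C2H2 zinc fingers that bind GC-rich and CACCC elements. The set described here was chosen by gene symbol and holds 9 of the 25897 symbols in the count table, namely Klf2, Klf3, Klf4, Klf5, Klf6, Klf9, Klf10, Klf13 and Klf16. All 9 had enough counts to be tested, with 1100 to 11773 reads per library. They were read in 3 groups by textbook role, the naive pluripotency factors (Klf2, Klf4 and Klf5), the factors known as growth-factor induced genes (Klf6 and Klf10) and 4 others (Klf3, Klf9, Klf13 and Klf16).

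Total RNA came from E14tg2a mouse embryonic stem cells of the 129SV background that express cRAF-ERT2, a RAF kinase fused to a hormone-binding domain, so that 4-hydroxytamoxifen (4OHT) turns on the kinase and ERK. Each of the clones a, b and c gave 1 library at every time, untreated and 1, 2 and 4 h into 250 nM 4OHT, so that there are 12 libraries in 4 groups of 3. For the 24 h before 4OHT all groups had 250 nM PD173074, which blocks FGF receptors, in serum and LIF, and they were given 5 mM ethynyl uridine in the last 15 min. Until the PD173074 step the medium of all groups held serum, LIF and the GSK3 inhibitor Chir99021 at 2 µM. The titles give all 4 times, whereas the treatment text mentions 0 h and 2 h alone. Every group carries the construct, and neither vehicle-treated cells nor cells without the construct are among these samples, so effects of 4OHT through the construct and apart from it cannot be told apart. No untreated library is labelled with a later time, so elapsed time and 4OHT cannot be told apart either. How the clones were derived is not given in the sources used here, so p-values measure the spread between these clones. Where clone is fitted as a block, they measure the spread left once constant differences between these clones are removed.

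In mouse embryonic stem cells Klf2, Klf4 and Klf5 bind many of the same sites as Nanog and Esrrb and can in part replace each other. LIF signalling through STAT3 is known to induce Klf4 and Klf5, and ERK is known to phosphorylate KLF2 and KLF4 proteins and to favour their breakdown, which RNA counts do not measure. Klf6 and Klf10 are known in other cell types as early response genes, Klf10 first as a TGF-beta inducible early gene. Klf9, Klf10, Klf13 and Klf16 bind the SIN3A corepressor, and Klf3 binds the CtBP corepressors.

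Wherever 3 values are given for a time they run in the order clone a, clone b, clone c, and "4 h clone a" names a single library. Changes are edgeR estimates as log2 units with their SE, positive where treated cells were higher. Sequencing depth was 24213641 to 31435301 counts per library. The 5 embryonic stem cell markers Pou5f1, Sox2, Nanog, Zfp42 and Esrrb had counts in all 12 libraries. Their summed level was 2932 to 3280 CPM (counts scaled to library size, with TMM factors) in untreated cells, 3510 to 3913 CPM at 1 h, 3449 to 4042 CPM at 2 h and 3132 to 3206 CPM at 4 h, so that 1 h and 2 h lay above the untreated range. Among them Nanog fell by 1.31 log2 units at 4 h (SE 0.13, edgeR adjusted p = 1.26e-04) and Pou5f1 rose by 0.60 ± 0.10 (edgeR adjusted p = 0.0019, exons overlapping antisense Gm19553 over 317 bases). The 5 primitive endoderm markers summed to 3.32 to 7.98 CPM at 4 h and 4.78 to 10.8 CPM in untreated cells. The 5 feeder fibroblast markers, 2 of which had counts in every library, summed to 11.6 to 26.4 CPM at 4 h and 3.39 to 4.22 CPM in untreated cells. Nearly all of the 4 h sum was Thy1 (10.9, 14.9 and 25.2 CPM), while Col1a2, Col3a1 and Dcn had 0 to 0.079 CPM there. The 5 trophoblast markers, 3 of which had counts in every library, summed to 31.1 to 62.1 CPM at 4 h and 16.8 to 30.0 CPM in untreated cells. None of these markers was at 0 in all libraries.

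Single markers of other cell types changed with treatment. At 4 h 2 of 4 tested trophoblast markers (Cdx2 and Eomes), 2 of 2 tested fibroblast markers (Thy1 and Col1a1) and 0 of 5 primitive endoderm markers were higher by edgeR, with 0 primitive endoderm markers at an unadjusted p under 0.05 and 0 in DESeq2. With the clone block 3 markers were also lower, Tfap2c (adjusted p = 0.0459), Gata4 (adjusted p = 0.0421) and Pdgfra (adjusted p = 0.0137). Cdx2, a trophoblast and caudal mesoderm factor, had 0.062, 0 and 0.035 CPM in untreated cells, 0.12, 0.071 and 0.076 CPM at 1 h, 1.07, 2.57 and 1.89 CPM at 2 h and 4.61, 32.8 and 14.7 CPM at 4 h (edgeR adjusted p = 1.67e-04 at 4 h). At 2 h and 4 h Cdx2 was lowest in clone a and highest in clone b, the order in which the 4 h changes of Klf4 (-0.31, -1.91 and -1.12) and Klf6 (0.46, 1.66 and 1.21) grew in size. The 4 h changes of Klf2, Klf5 and Klf10 had this order too, and those of Klf3, Klf9, Klf13 and Klf16 did not. The order is not particular to these genes, as clone a changed least for 65.3% of all genes called at 4 h. Eomes rose by 2.34 ± 0.22 log2 units (edgeR adjusted p = 9.01e-05) to 10.4, 15.7 and 19.1 CPM at 4 h, against 2.59, 3.22 and 3.11 CPM in untreated cells, and its exons overlap antisense Gm33460 over 118 bases. Thy1 rose by 2.32 ± 0.31 (edgeR adjusted p = 4.78e-04) to 10.9, 14.9 and 25.2 CPM at 4 h, against 2.90, 3.62 and 3.74 CPM in untreated cells. The Col1a1 call (1.28 ± 0.44, edgeR adjusted p = 0.0437, 0.499 to 1.07 CPM at 4 h) was lost without untreated clone a or b, any 1 h library, 2 h clone c or 4 h clone b or c and in a fit of the 2 groups alone (edgeR adjusted p 0.053 to 0.149). These markers are named because of their values, and their part in the KLF changes was not tested.

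Promoter sequence is shown for 3 members that represent the contrast described here, Klf2 and Klf4 on the naive side and Klf6 on the growth-factor side. The windows are the 250 bases before the transcription start on the gene's own strand, taken from RefSeq (GRCm38.p6), where 6 of the 9 members matched and Klf5, Klf10 and Klf16 did not. Capitals mark a match to the EGR motif GCGNGGGCG or to the MEF2 motif in Klf2, to the EGR motif in Klf4, and to the GC box GGGCGG in Klf6.
Klf2, chr8:72318812-72319061, plus strand: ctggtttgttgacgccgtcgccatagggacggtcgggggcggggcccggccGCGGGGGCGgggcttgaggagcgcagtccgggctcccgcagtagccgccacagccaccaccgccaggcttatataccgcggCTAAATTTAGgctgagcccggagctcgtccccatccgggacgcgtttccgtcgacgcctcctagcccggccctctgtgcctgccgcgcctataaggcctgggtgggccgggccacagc
Klf4, chr4:55532476-55532725, minus strand: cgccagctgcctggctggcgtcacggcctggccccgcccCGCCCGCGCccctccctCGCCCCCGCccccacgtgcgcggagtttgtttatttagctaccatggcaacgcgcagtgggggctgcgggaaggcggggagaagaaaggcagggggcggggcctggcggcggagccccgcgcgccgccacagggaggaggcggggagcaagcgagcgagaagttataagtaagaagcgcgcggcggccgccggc
Klf6, chr13:5861239-5861488, plus strand: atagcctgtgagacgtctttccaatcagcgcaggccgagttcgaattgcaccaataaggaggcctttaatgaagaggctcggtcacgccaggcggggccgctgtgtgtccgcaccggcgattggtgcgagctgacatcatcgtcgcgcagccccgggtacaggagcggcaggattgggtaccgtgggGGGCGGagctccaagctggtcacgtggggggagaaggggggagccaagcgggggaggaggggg

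Klf2 held its MEF2 match from position -118 and an EGR match from position -199, counted back from the RefSeq start. Klf4 held EGR matches from positions -211 and -194, both on the other strand, and Klf6 a GC box from position -63. Klf2 and Klf4 also held GC boxes (2 and 4 matches), which are not marked as such. Motifs were searched on both strands. Every EGR match in the member windows overlaps a GC box, so the counts of these motifs are not separate. The RefSeq windows set beside them were not matched for GC content. Of the 6 member windows, 5 held a GC box, 3 an EGR match (Klf2, Klf3 and Klf4) and 3 the CACCC box CCACCC (Klf2, Klf3 and Klf13), against 32.7%, 4.7% and 28.1% of 32851 RefSeq promoter windows. The MEF2 motif was in 1 member window (Klf2), against 2.92% of all windows. Klf9 held the AP-1 motif TGANTCA and the STAT motif TTCNNNGAA, which were in 6.75% and 7.02% of all windows. The ETS core CCGGAA, present in 12% of all windows, and the CArG box bound by SRF, present in 1.47%, were in 0 of the 6. These matches describe letters in the windows and say nothing of binding in these cells.

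**Figure D1:**
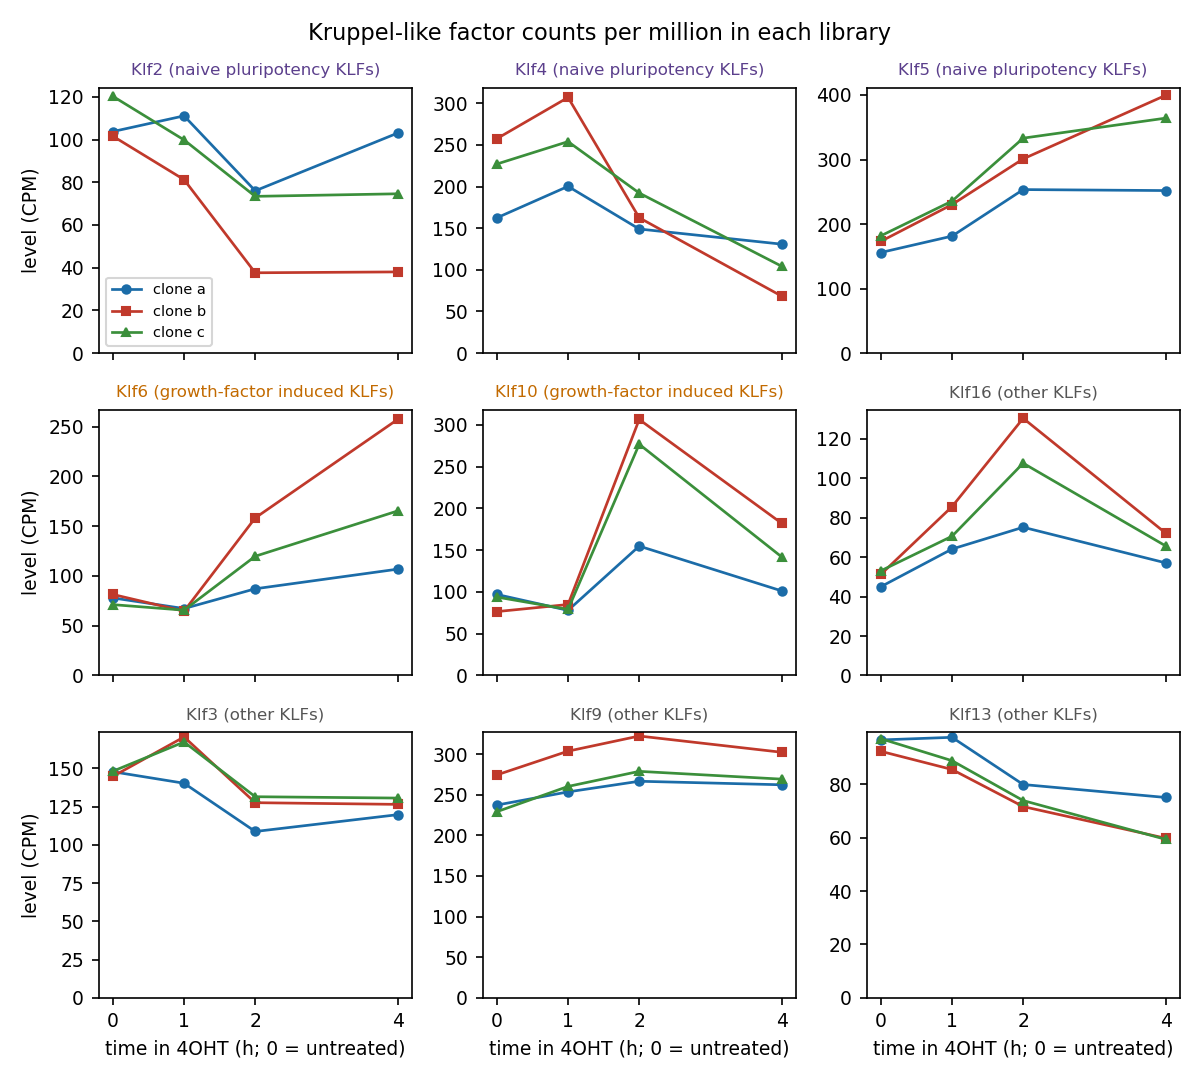
Levels of the 9 Kruppel-like factors in each library (y axis, CPM, from 0; x axis, hours in 4OHT, 0 being untreated; 1 line per clone). Klf5 is higher and Klf13 lower in every clone at 2 h and 4 h, Klf10 and Klf16 are highest at 2 h in every clone, and Klf9 stays between 229 and 322 CPM.

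The comparisons with untreated cells ask which KLF genes respond to the activated construct, and when. Over the 3 treated times together, 7 of the 9 members differed from untreated cells by edgeR's F test, at a rate of 27.4% over all 14185 genes tested. The exceptions were Klf2 (adjusted p = 0.189) and Klf9 (adjusted p = 0.321). With clone as a block, which removes the constant differences between clones, all 9 passed (Klf2 adjusted p = 0.00948 and Klf9 adjusted p = 0.00431), at a rate of 56.8% over all genes.

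At 1 h, 0 of 9 members passed by edgeR, where 0.0775% of all genes did. Of the members, 1 had an unadjusted p under 0.05 (Klf16), as did 1630 of all 14185 genes. In DESeq2 0 members passed, and 130 of all genes did. With the clone block Klf16 (adjusted p = 0.0113) and Klf5 (adjusted p = 0.034) were higher, where 5.41% of all genes were. At 2 h 3 members rose (Klf5, Klf10 and Klf16) and 1 fell (Klf13), where 9.56% of all genes rose and 6.64% fell. At 4 h 2 rose (Klf5 and Klf6) and 2 fell (Klf4 and Klf13), where 18% of all genes rose and 15.1% fell. With the clone block 5 were higher and 3 lower at 2 h, where 20.6% of all genes were higher and 20% lower, and 5 were higher and 4 lower at 4 h, where 26.2% and 25.7% were. At 1, 2 and 4 h the 9 members had median log2 changes of 0.12, 0.23 and 0.17, beside -0.02 over all genes at each time. In bulk RNA, fewer cells expressing a gene and less RNA per cell cannot be told apart.

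**Figure D2:**
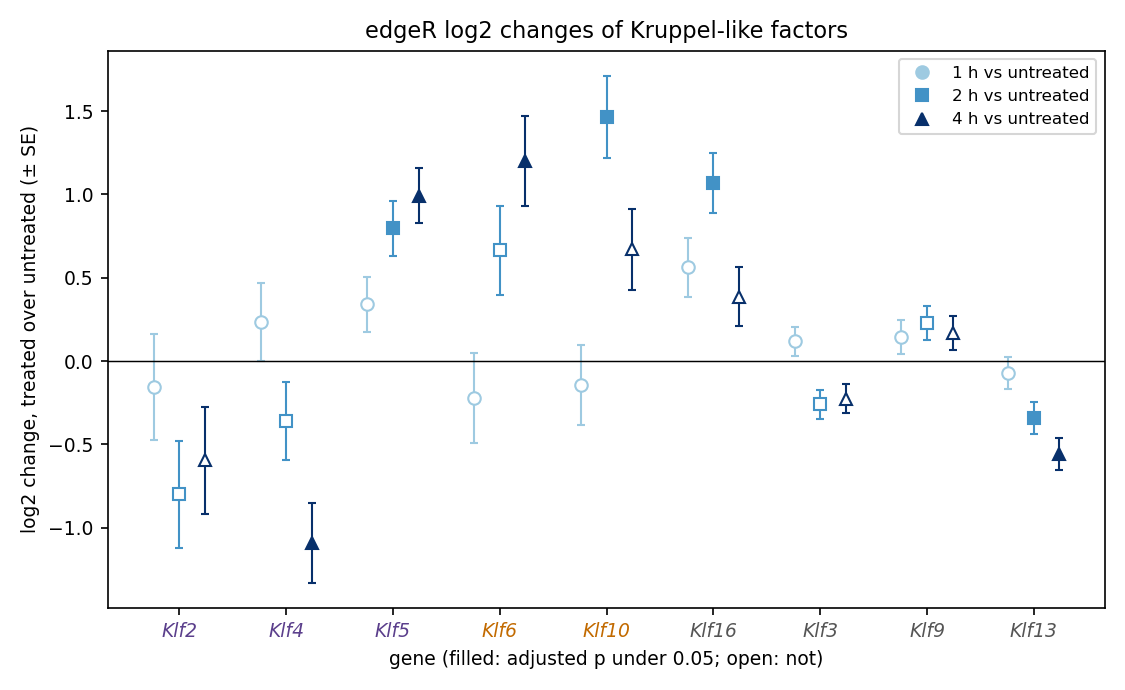
Log2 change of each Kruppel-like factor at 1, 2 and 4 h over untreated cells (y axis, edgeR estimate, bars are ± SE; filled symbols have an adjusted p under 0.05 without the clone block). Klf10 is largest at 2 h with 1.46, Klf6 at 4 h with 1.20, and Klf4 lies lowest at 4 h with -1.09.

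Klf4, a naive pluripotency factor and one of the classic reprogramming factors (GRCm38, GENCODE M21, chr4:55527143-55532466, minus strand), was lower at 4 h. It had 162, 257 and 227 CPM in untreated cells, 200, 307 and 254 CPM at 1 h, 149, 163 and 192 CPM at 2 h and 131, 68.5 and 104 CPM at 4 h. Every clone was at its highest at 1 h and at its lowest at 4 h, and the 4 h and untreated groups did not overlap. Klf4 fell by 1.09 log2 units at 4 h (SE 0.24, edgeR adjusted p = 0.00571, 0.47-fold). The values at 1 h (0.23 ± 0.24, adjusted p = 0.77) and at 2 h (-0.36 ± 0.24, adjusted p = 0.3) did not pass in edgeR. Between 2 h and 4 h the difference was -0.73 ± 0.24 (edgeR adjusted p = 0.104, 0.05 and not past the threshold with the clone block, 0.0358 in DESeq2). By clone, the log2 change at 4 h was -0.31 in clone a, -1.91 in clone b and -1.12 in clone c. Without 4 h clone a the 4 h to 2 h difference passed (-0.96, edgeR adjusted p = 0.0316).

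Klf2, a naive pluripotency factor that in endothelium is a target of ERK5 and MEF2 (chr8:72319033-72321656, plus strand), was lower at 2 h in every clone. It had 104, 102 and 120 CPM in untreated cells, 111, 81.2 and 99.8 CPM at 1 h, 76.0, 37.6 and 73.4 CPM at 2 h and 103, 38.0 and 74.6 CPM at 4 h. The 2 h group lay below the untreated group, while at 4 h clone a was level with its untreated library (log2 change -0.01) and clones b and c were at -1.42 and -0.69. The fitted change was -0.80 ± 0.32 at 2 h (edgeR adjusted p = 0.106) and -0.60 ± 0.32 at 4 h (edgeR adjusted p = 0.177), neither past the threshold. With the clone block it fell at both times (adjusted p = 0.00635 at 2 h and 0.0137 at 4 h). Without 4 h clone a the 4 h change passed (-0.95, edgeR adjusted p = 0.0376), and without 4 h clone b the 2 h change did (-0.81, edgeR adjusted p = 0.0373).

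Klf5, a naive pluripotency factor and LIF target also expressed in gut epithelium (chr14:99298691-99315036, plus strand), was higher at 2 h and 4 h. Untreated cells had 156, 173 and 182 CPM, followed by 181, 230 and 236 CPM at 1 h, 253, 301 and 333 CPM at 2 h and 252, 399 and 364 CPM at 4 h. All 6 libraries of 2 h and 4 h were above all untreated ones. Klf5 rose by 0.80 ± 0.16 log2 units at 2 h (edgeR adjusted p = 0.0138, 1.74-fold) and by 0.99 ± 0.17 at 4 h (edgeR adjusted p = 0.00142, 1.99-fold). The difference between 2 h and 4 h was 0.19 ± 0.16 (edgeR adjusted p = 0.556). The clones changed by 0.69, 1.21 and 1.00 at 4 h. The 2 h call was lost without 2 h clone b (edgeR adjusted p = 0.0554) or 2 h clone c (edgeR adjusted p = 0.067).

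Klf10, a zinc finger repressor induced by TGF-beta and by growth factors in other cells (chr15:38291463-38300706, minus strand), had the largest fitted change of the 9 members. It had 97.0, 76.5 and 93.9 CPM in untreated cells, 78.0, 85.0 and 79.2 CPM at 1 h, 155, 307 and 277 CPM at 2 h and 101, 182 and 142 CPM at 4 h. Each clone peaked at 2 h, and the 2 h libraries were above every untreated and 1 h library. Klf10 rose by 1.46 ± 0.25 log2 units at 2 h (edgeR adjusted p = 0.00743, 2.76-fold), a call that held without any 1 of the 12 libraries. At 4 h it was at 0.67 ± 0.24 (edgeR adjusted p = 0.0523, 0.0243 with the clone block, 0.0228 in DESeq2, 0.0456 without a filter on low counts). The change at 4 h was 0.06 in clone a, 1.25 in clone b and 0.60 in clone c, and without 4 h clone a it passed (0.86, edgeR adjusted p = 0.0139). It also passed without 2 h clone a (edgeR adjusted p = 0.015) or 2 h clone b (edgeR adjusted p = 0.0465).

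From 1 h to 2 h 0 of 9 members passed by edgeR, where 0.0634% of all genes did. An unadjusted p under 0.05 was found for 7 members, and for 2291 of all 14185 genes. DESeq2 called 3 members (Klf3, Klf6 and Klf10), and 573 of all genes. Klf10 lay just outside the threshold (1.61 ± 0.25, edgeR adjusted p = 0.0507), and with the clone block it was higher (adjusted p = 0.00199) along with Klf5, Klf6 and Klf16, where 7.13% of all genes were higher. The block also had Klf2, Klf3 and Klf13 lower at 2 h than at 1 h, where 5.46% of all genes were lower. Without the block, Klf10 passed once 2 h clone a (edgeR adjusted p = 0.00727), 4 h clone a (edgeR adjusted p = 0.0112) or 4 h clone b (edgeR adjusted p = 0.0307) was left out, and Klf16 once 2 h clone a was (edgeR adjusted p = 0.0487). From 2 h to 4 h 0 of 9 passed by edgeR, where 4.68% of all genes did. At an unadjusted p under 0.05 there were 4 members, and 2941 of all 14185 genes. DESeq2 called 3 members (Klf4, Klf10 and Klf16), and 1395 of all genes. With the block Klf10 (-0.79, adjusted p = 0.018), Klf13 (-0.22, adjusted p = 0.0286) and Klf16 (-0.66, adjusted p = 0.00127) were lower at 4 h than at 2 h, where 9.98% of all genes were. Without the block, leaving out 2 h clone a brought Klf10 and Klf16 past the threshold (edgeR adjusted p = 0.0253 and 0.0169), and leaving out 4 h clone a brought Klf6 and Klf13 past it (edgeR adjusted p = 0.0442 and 0.0236), with Klf6 higher.

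Klf6, a growth-factor induced activator known as an early response gene in liver stellate cells (chr13:5861482-5870394, plus strand), was highest at 4 h in every clone. Its levels were 77.9, 81.4 and 71.1 CPM in untreated cells, 67.2, 64.6 and 65.6 CPM at 1 h, 87.0, 158 and 120 CPM at 2 h and 107, 257 and 165 CPM at 4 h. The 1 h libraries lay below the untreated ones and the 2 h and 4 h libraries above them. At 1 h the fitted change was -0.22 ± 0.27 (edgeR adjusted p = 0.824). At 2 h it was 0.66 ± 0.27 (edgeR adjusted p = 0.107, 0.03 with the clone block). At 4 h Klf6 rose by 1.20 ± 0.27 log2 units (edgeR adjusted p = 0.00671, 2.30-fold), a call that held without any 1 library. The 4 h change was 0.46 in clone a, 1.66 in clone b and 1.21 in clone c. The 2 h change passed without 2 h clone a (0.86, edgeR adjusted p = 0.0451) and without 4 h clone a or b (edgeR adjusted p = 0.0404 and 0.0424).

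**Figure D3:**
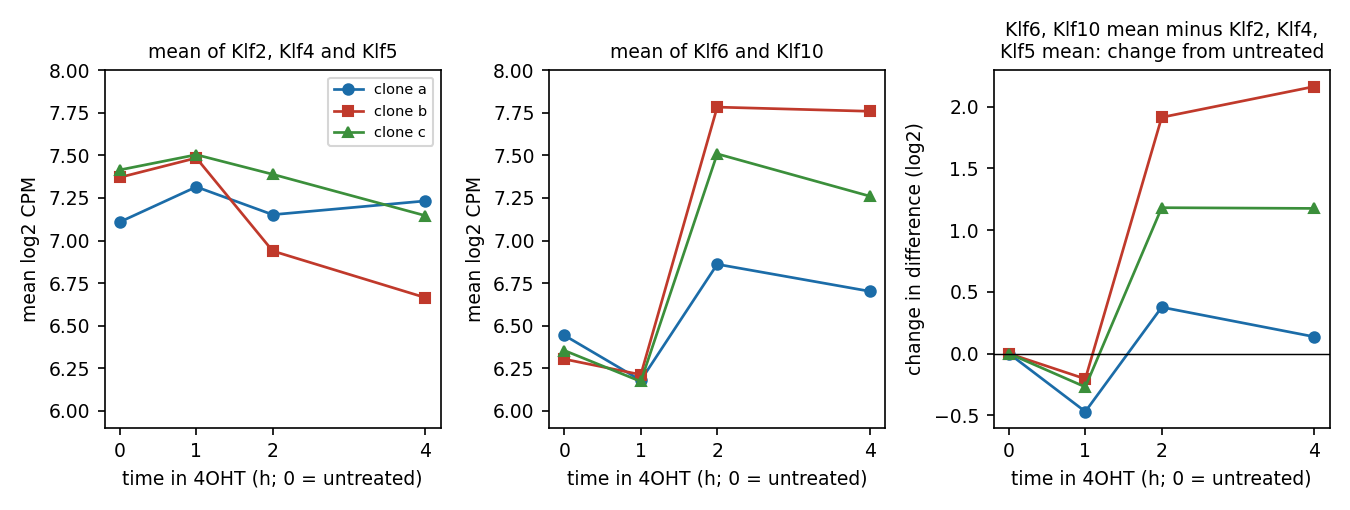
Mean log2 CPM of Klf2, Klf4 and Klf5 (left), of Klf6 and Klf10 (middle) and the change of their difference from each clone's untreated library (right), against hours in 4OHT, 0 being untreated, with 1 line per clone. The change is below 0 in every clone at 1 h and above 0 at 2 h and 4 h, where clone b is highest at 1.91 and 2.16 and clone a lowest at 0.38 and 0.14.

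The contrast between both roles was read in each library as the mean log2 CPM of Klf6 and Klf10 minus that of Klf2, Klf4 and Klf5. Only its change from a clone's own untreated library is read, since CPM is not scaled to gene length. The changes were -0.47, -0.21 and -0.27 at 1 h, 0.38, 1.91 and 1.18 at 2 h and 0.14, 2.16 and 1.18 at 4 h. Each clone went down at 1 h, with a mean of -0.32 ± 0.14 (SD, n = 3 clones), and up at 2 h and 4 h, with means of 1.16 ± 0.77 and 1.16 ± 1.01. No test is given for this difference, since the members were picked with results of these data known. The naive mean hides the opposite courses of Klf4 and Klf5. The root mean square difference of gene-centred log2 CPM over the 12 libraries was 0.92 between Klf4 and Klf5 and 0.52 between Klf2 and Klf4, beside 0.48 between Klf6 and Klf10. Klf5 was nearer to Klf6 (0.35) and Klf10 (0.47) than to Klf2 (0.90) or Klf4, the other naive members. Klf9 (0.35) and Klf16 (0.37), which are in neither role, were also nearer to Klf5 than Klf10 was. Klf2 and Klf4 were each nearest to Klf13 (0.39 and 0.42) among the members.

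Klf16, a repressor that binds SIN3A (chr10:80567124-80577321, minus strand), was highest at 2 h in every clone, as was Klf10. Levels were 45.0, 51.2 and 53.1 CPM in untreated cells, 64.1, 85.6 and 70.6 CPM at 1 h, 75.1, 130 and 108 CPM at 2 h and 57.1, 72.2 and 65.7 CPM at 4 h. It was already above the untreated group at 1 h in all 3 clones (0.56 ± 0.18, edgeR adjusted p = 0.29, 0.0113 with the clone block). Klf16 rose by 1.07 ± 0.18 log2 units at 2 h (edgeR adjusted p = 0.00754, 2.10-fold), and this held without any 1 library. At 4 h it was at 0.39 ± 0.18 (edgeR adjusted p = 0.118, 0.00689 with the clone block). Without 2 h clone a the 4 h value passed (edgeR adjusted p = 0.0436). Klf10 and Klf16 differed by 0.45 in root mean square over the 12 libraries, and Klf16 was nearer to Klf9 (0.33) and Klf5 (0.37).

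Klf13, a SIN3A-binding repressor also known as an activator in T cells (chr7:63886351-63938915, minus strand), was lower. It had 96.6, 92.3 and 97.0 CPM in untreated cells, 97.6, 85.5 and 88.8 CPM at 1 h, 79.9, 71.6 and 73.9 CPM at 2 h and 75.0, 59.8 and 59.4 CPM at 4 h. The 2 h and 4 h libraries all lay below the untreated ones. Klf13 fell by 0.34 log2 units at 2 h (SE 0.09, edgeR adjusted p = 0.0341) and by 0.56 at 4 h (SE 0.10, edgeR adjusted p = 0.00157, 0.68-fold). The 4 h call held without any 1 library. The 2 h call did not, and its edgeR adjusted p was 0.0791, 0.0721 and 0.0796 without untreated clone a, b or c, 0.0519 without 1 h clone c, and 0.121 and 0.117 without 2 h clone b or c. Without a filter on low counts it was 0.0504.

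Klf3, a CtBP-binding repressor (chr5:64803388-64832901, plus strand), was lower in every clone at 2 h and 4 h by a small margin. It had 148, 145 and 148 CPM in untreated cells, 140, 170 and 167 CPM at 1 h, 109, 128 and 131 CPM at 2 h and 120, 126 and 131 CPM at 4 h. Libraries of 2 h and 4 h were all below untreated ones, but the fitted changes of -0.26 ± 0.09 at 2 h (edgeR adjusted p = 0.065) and -0.23 ± 0.09 at 4 h (edgeR adjusted p = 0.0713) did not pass. With the clone block Klf3 fell at both times (adjusted p = 0.00648 and 0.00934). The 2 h and 4 h values also passed without 1 h clone a (edgeR adjusted p = 0.0494 and 0.0463), and the 4 h value without 2 h clone a (edgeR adjusted p = 0.0424). Its call in the F test was lost without 1 h clone b or c (adjusted p = 0.0556 and 0.0594). Exons of Klf3 overlap those of Gm20033, on the other strand, over 404 bases, so its counts are uncertain to that extent. No exon of the other 8 members overlaps another annotated gene.

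Klf9, a SIN3A-binding repressor induced by thyroid and glucocorticoid hormones in other cells (chr19:23141226-23168134, plus strand), had the smallest fitted change at 4 h among the 9. It had 237, 274 and 229 CPM in untreated cells, 253, 304 and 260 CPM at 1 h, 267, 322 and 279 CPM at 2 h and 262, 302 and 269 CPM at 4 h. Groups overlapped at every time, although each clone was above its own untreated library at all 3. The change was 0.23 ± 0.10 at 2 h (edgeR adjusted p = 0.138, 0.00182 with the clone block) and 0.17 ± 0.10 at 4 h (edgeR adjusted p = 0.219, 0.00472 with the clone block).

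At 2 h 4 members lay wholly above the untreated group and 3 wholly below it, and the same counts held at 4 h. Of all genes, 19.1% were wholly above and 18.2% wholly below at 2 h, and 22.8% and 21.9% at 4 h. Clone a had the smallest change of the 3 clones for 8 of 9 members at 2 h and 6 of 9 at 4 h. The same was so for 52.8% of all genes tested at 2 h and 49.7% at 4 h, and for 72% and 65.3% of the genes called at these times. Without all libraries of clone c 0 of 9 members passed at either time by edgeR, in a fit with 2 clones per group that called 1 gene in all at 2 h and 919 at 4 h. Without all libraries of clone b 0 passed at 2 h, in a fit that called 97 of 14206 genes.

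**Figure D4:**
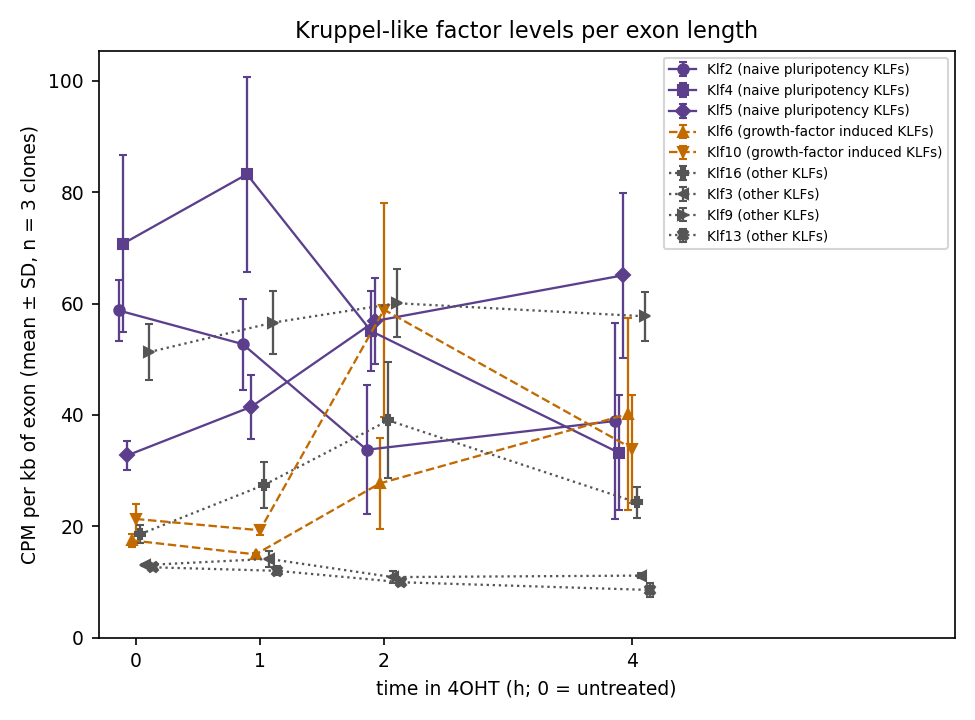
Level of each Kruppel-like factor per kilobase of exon (y axis, CPM per kb, mean ± SD of 3 clones; x axis, hours in 4OHT, 0 being untreated, points shifted sideways to be seen). Klf5 is the highest at 4 h at 65.1 and Klf4 in untreated cells at 70.7, while Klf3 and Klf13 are the lowest at every time.

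Levels can be compared between genes only per length. Divided by the exon length in GENCODE M21, the order of mean levels at 4 h was Klf5 (65.1 ± 14.8 CPM per kb), Klf9 (57.7 ± 4.44), Klf6 (40.2 ± 17.3), Klf2 (38.9 ± 17.6), Klf10 (34.0 ± 9.7), Klf4 (33.2 ± 10.3), Klf16 (24.3 ± 2.84), Klf3 (11.2 ± 0.488) and Klf13 (8.59 ± 1.19), each ± SD over 3 clones. Neighbours from Klf5 to Klf16 overlapped in range, and Klf3 and Klf13 did not overlap with each other or with Klf16. Untreated levels were 70.7 ± 15.9 CPM per kb for Klf4, 58.8 ± 5.53 for Klf2, 51.3 ± 5.01 for Klf9 and 32.7 ± 2.53 for Klf5 (SD, n = 3 clones). Klf10 (21.3 ± 2.65), Klf16 (18.6 ± 1.58), Klf6 (17.5 ± 1.18), Klf3 (13.1 ± 0.165) and Klf13 (12.7 ± 0.346) followed on the same scale. Neighbours in this order overlapped in range, except that Klf5 stood apart from Klf9 above it and Klf10 below it, and Klf6 from Klf3. Klf4 thus stood at rank 6 at 4 h and rank 1 in untreated cells, and Klf5 at rank 1 at 4 h and rank 4 in untreated cells.

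Among 9582 other genes of at least 5 CPM, those with the profile nearest to each of 5 members over the 12 libraries were found by root mean square difference of centred log2 CPM. They were Nfu1 (0.09), Trip10 (0.09) and Tnfrsf10b (0.10) for Klf5, whose own SD over the libraries was 0.44. For Klf6 (SD 0.64) they were Foxo1 (0.17), Anxa7 (0.18) and Lonrf3 (0.19), and for Klf10 (SD 0.71) Zbtb46 (0.31), Slc25a33 (0.31) and Arl5b (0.34). For Klf2 (SD 0.56) they were Dapp1 (0.15), Nceh1 (0.16) and Whrn (0.17), and for Klf4 (SD 0.61) Inpp5d (0.21), Palm (0.21) and Kcnh3 (0.21). Klf10 thus had no gene as near to it as the other 4 members had.

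Of the other KLF family genes, 8 of 9 listed were in the table and 6 were tested. At 1 h 0 passed in edgeR, with 0 at an unadjusted p under 0.05 and 0 in DESeq2. At 2 h 0 rose and 2 fell (Klf8 and Klf15), and DESeq2 gave 0 and 3, with 0 and 4 at an unadjusted p under 0.05 and with the clone block. At 4 h 1 rose and 2 fell, DESeq2 gave 1 and 3, and the block 2 and 3. The Klf8 call at 2 h was lost without untreated clone b (edgeR adjusted p = 0.0768) or c (0.0534) or 2 h clone c (0.0875). Klf8, a CtBP-binding repressor like Klf3, had 69.9, 59.3 and 61.0 CPM at 4 h, against 138, 166 and 154 CPM in untreated cells. Klf8 fell by 1.27 log2 units at 4 h (SE 0.11, edgeR adjusted p = 4.89e-05). Klf11, the closest relative of Klf10, had 18.8, 7.74 and 13.7 CPM at 4 h, against 26.6, 28.9 and 30.3 CPM in untreated cells, and fell by 1.09 (SE 0.24, edgeR adjusted p = 0.00582). So at 4 h Klf11 was lower in every clone while Klf10 was higher in every clone. The 4 h change of Klf10 was only 0.06 log2 units in clone a and did not pass (edgeR adjusted p = 0.0523). Klf12 rose by 0.64 ± 0.17 at 4 h (edgeR adjusted p = 0.0133), a call lost without 4 h clone b (0.0615) or untreated clone c (0.05). Klf15 fell by 0.85 at 2 h (SE 0.26, edgeR adjusted p = 0.0448), a call that stayed without 2 h clone a, 4 h clone a or 4 h clone b and was lost without any of the other 9 libraries (0.0541 to 0.161). It was at -0.72 ± 0.26 at 4 h (edgeR adjusted p = 0.0507, 0.0109 with the clone block), and passed there without untreated clone a (0.0485), 2 h clone a (0.0443), 2 h clone b (0.0447) or 4 h clone a (0.00644).

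Of 7 tested SP genes, the zinc finger relatives of the KLFs, 3 rose and 0 fell at 4 h by edgeR, with 0 lower at an unadjusted p under 0.05 and 0 lower in DESeq2. Sp5, a Wnt target of early embryos, rose by 2.79 ± 0.42 log2 units to 1.61, 1.15 and 1.86 CPM at 4 h, against 0.278, 0.080 and 0.277 CPM in untreated cells (edgeR adjusted p = 8.61e-04). Its untreated libraries hold 9, 2 and 8 counts. Sp1 (0.39 ± 0.12, edgeR adjusted p = 0.0295) and Sp2 (0.31 ± 0.09, edgeR adjusted p = 0.0256) rose at 4 h. Both calls were lost without untreated clone a or 4 h clone b or c, that of Sp1 also without untreated clone c, and that of Sp2 without untreated clone b (edgeR adjusted p 0.0721 to 0.13 for Sp1 and 0.0738 to 0.095 for Sp2). A fit of the 4 h and untreated groups alone lost both too (edgeR adjusted p = 0.0588 for Sp1 and 0.0888 for Sp2). Exons of Sp2 overlap another transcript over 126 bases. At 2 h 1 fell, Sp8, which has 1 to 20 counts per library (-2.03 ± 0.58, edgeR adjusted p = 0.0381), and its call was lost without any untreated library, 1 h clone c or 2 h clone b or c (edgeR adjusted p 0.0558 to 0.144).

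The 10 corepressor genes that KLFs recruit had median log2 changes of 0.04, 0.08 and -0.02 at 1, 2 and 4 h. By edgeR 0 passed at 1, 2 or 4 h, with 2, 2 and 2 at an unadjusted p under 0.05, DESeq2 called 0, 1 and 0, and the clone block called 2 at each time. The values of Sin3b were 0.22 ± 0.07, 0.21 ± 0.07 and -0.03 ± 0.07 log2 units at 1, 2 and 4 h, with edgeR adjusted p of 0.292, 0.0654 and 0.803, and 0.0209, 0.00566 and 0.666 with the block. Its 2 h value passed without 2 h clone a (edgeR adjusted p = 0.044). Ctbp1, a partner of Klf3 and Klf8, was at 0.28 ± 0.09, 0.21 ± 0.09 and 0.23 ± 0.09 at the same times, with edgeR adjusted p of 0.305, 0.125 and 0.0759, and 0.0329, 0.025 and 0.0135 with the block. Its 4 h value passed without untreated clone b (edgeR adjusted p = 0.0368). Of 7 tested ubiquitin ligase genes known to act on KLF proteins, 3 fell at 4 h by edgeR and 0 rose, while DESeq2 gave 4 and 1 and the clone block 5 and 1. They included Btrc (-0.60 ± 0.11, edgeR adjusted p = 0.00191), whose product marks KLF4 for breakdown after ERK phosphorylation, and Vhl (-0.46 ± 0.12, edgeR adjusted p = 0.0138). Exons of Btrc overlap a processed pseudogene over 235 bases. Smurf1 was at -0.27 ± 0.10 (edgeR adjusted p = 0.0507, 0.0048 with the block), and passed without 4 h clone a (0.0489).

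Of 12 regulators and partners of the naive KLFs, 2 rose and 3 fell at 2 h and 0 rose and 6 fell at 4 h by edgeR. DESeq2 gave the same counts, and 0 were higher at an unadjusted p under 0.05 at 4 h. With the clone block 2 were higher and 5 lower at 2 h, and 1 higher (Zfp42, adjusted p = 0.00429) and 7 lower at 4 h. Beside Nanog, given above, Prdm14 fell at 4 h by 2.06 log2 units (SE 0.35, edgeR adjusted p = 0.00157) and Tbx3 by 0.97 (SE 0.21, edgeR adjusted p = 0.00523). Il6st, the gp130 chain of the LIF receptor, fell by 0.48 at 2 h (SE 0.07, edgeR adjusted p = 0.00499) and by 0.32 at 4 h (SE 0.07, edgeR adjusted p = 0.007). Exons of Tbx3 overlap an antisense transcript over 115 bases. Nanog was at -0.05 ± 0.13 at 2 h (edgeR adjusted p = 0.803), so like Klf4 it passed at 4 h and not at 2 h.

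The ERK5 branch, which is known upstream of Klf2 and Klf4 in other cells, had 1 of 5 tested genes higher and 1 lower at 4 h by edgeR. Map2k5, the ERK5 kinase, fell by 0.41 (SE 0.10, edgeR adjusted p = 0.00978). Mapk7, which encodes ERK5, rose by 0.47 ± 0.13 (edgeR adjusted p = 0.0202), a call lost without untreated clone a (0.0679) or 4 h clone c (0.0718) and in a fit of the 4 h and untreated groups alone (0.0503). Its exons overlap Mfap4 over 89 bases. Mef2c was at 1.26 ± 0.51 at 4 h (edgeR adjusted p = 0.0787), and without untreated clone b it passed (1.85, edgeR adjusted p = 0.0364). Mef2c has 90 counts over the 12 libraries.

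TGF-beta and SMAD genes, the setting in which Klf10 was named, had 3 of 9 higher and 0 lower at 2 h and 4 higher and 2 lower at 4 h by edgeR. At 2 h DESeq2 gave 3 and 0, 1 was lower at an unadjusted p under 0.05, and the clone block gave 5 and 1. Smad7, an inhibitory SMAD that KLF10 is known to repress, rose by 0.91 ± 0.13 at 2 h (edgeR adjusted p = 0.00374) and was at 0.29 ± 0.13 at 4 h (edgeR adjusted p = 0.104, 0.00152 with the clone block). Skil, a SMAD corepressor, rose by 0.77 ± 0.14 at 2 h (edgeR adjusted p = 0.00961) and was at 0.26 ± 0.14 at 4 h (edgeR adjusted p = 0.181, 0.0488 with the block), passing there without untreated clone a (0.0207). Both had their largest fitted change at 2 h, as did Klf10. Tgif1 rose by 0.64 ± 0.12 at 2 h (edgeR adjusted p = 0.00893). Tgfbr2, a TGF-beta receptor, rose by 2.60 ± 0.48 at 4 h (edgeR adjusted p = 0.0024) and was at 0.86 ± 0.47 at 2 h (edgeR adjusted p = 0.219, 0.026 with the block).

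The median log2 change at 4 h was -0.39 over the other KLF genes, 0.20 over the SP genes, -0.27 over the ubiquitin ligase genes, -0.33 over the regulators and partners of the naive KLFs, 0.47 over the ERK5 branch and 0.29 over the TGF-beta and SMAD genes, beside -0.02 over all genes tested.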

How the data were processed

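Raw counts per gene symbol were deposited by the authors as a single table of 12 columns, each matched to its sample by the time and clone letter in its name. STAR, featureCounts, DESeq and mm10 are named in the submitters' processing notes. The sources used here give no versions, annotation or strand setting, so overlapping genes cannot be separated. Chi-square per degree of freedom between libraries of a group was 18.5 to 103, far above sampling noise, and none was merged.

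filterByExpr (minimum count 10, minimum total 15) left 14185 genes. With edgeR 4.0.16 (limma 3.58.1, R 4.3.3), counts were TMM-scaled and fitted by quasi-likelihood with a mean per group, on 8 residual degrees of freedom. Tests were 2-sided and Benjamini-Hochberg adjusted over these genes, at a threshold of 0.05. Each SE is approximate, taken as the size of the log2 change over the root of its F statistic. For log2 CPM a prior count of 2 was used. A single count is worth 0.0308 to 0.0408 CPM. Alternatives were DESeq2 1.42.0, RLE size factors, no filter, the compared groups alone, and leaving out each library or clone. Only the edgeR fit without the block was tested on simulated counts, for 2 h against untreated cells. Those counts were drawn without differences between clones.

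A clone letter marks the same cells throughout, and this pairs the libraries. Deviations from group means correlated at 0.184 to 0.684 in 18 of 18 same-clone pairs and at -0.568 to -0.024 in 36 others. Deviations within a group sum to 0, which pushes the others below 0 on average, so they are no separate evidence of pairing. With clone as a block, 6 residual degrees of freedom remained.

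Named were all 9 members, up to 4 genes of each other list by smallest F-test p, and the 3 nearest profiles of 5 members. Members, lists and motifs were chosen with earlier results of these data known. Coordinates and exon lengths are from GENCODE M21 (GRCm38), counted from 1, and the annotation behind the counts may differ.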

Additional observations from a re-analysis of the deposited data

How the results depend on the processing

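The direction of all 27 member changes from untreated cells was the same in every alternative run. Values that changed sign did so only with libraries or clones left out, and none passed the threshold in any of those fits. Their ranges were, from 1 h to 2 h, -0.0025 to 0.17 for Klf9, and from 2 h to 4 h, -0.15 to 0.52 for Klf2, -0.046 to 0.088 for Klf3 and -0.12 to 0.031 for Klf9. At 1 h they were -0.11 to 0.22 for Klf12, -0.0044 to 0.17 for Sp1, -0.13 to 0.016 for Btrc, -0.19 to 0.10 for Tbx3, -1.03 to 0.43 for Mef2c, -0.17 to 0.45 for Tgfbr2 and -0.076 to 0.25 for Skil. At 2 h they were -0.016 to 0.33 for Klf12, -0.0051 to 0.11 for Sp2, -0.13 to 0.059 for Nanog and -0.94 to 0.33 for Mef2c, and at 4 h -0.066 to 0.017 for Sin3b. Counts of members past the threshold were the same with RLE size factors and in fits of the compared groups alone. With clone as a replicate block they were 2 at 1 h, 8 at 2 h, 9 at 4 h, 7 from 1 h to 2 h and 3 from 2 h to 4 h, against 0, 4, 4, 0 and 0 without it. In the same order the block called 992, 5754, 7374, 1785 and 3115 of all 14185 genes, against 11, 2298, 4691, 9 and 664. Every member call made without the block was also made with it. In fits of the compared groups alone Sp1, Sp2, Mapk7, Tgif1 and Col1a1 lost their 4 h calls. Without a filter on low counts 3 members passed at 2 h (Klf13 was lost) and 5 at 4 h (Klf10 was gained), 1 member passed from 1 h to 2 h (Klf10) and 1 from 2 h to 4 h (Klf16), and DESeq2 called 3 in each. Of all 19425 genes the fit without a filter called 2022, 4425, 43 and 624 in these comparisons. DESeq2 called 573 of all genes from 1 h to 2 h and 1395 from 2 h to 4 h. Leaving out libraries or whole clones gave 0 to 0 members at 1 h, 0 to 6 at 2 h, 0 to 7 at 4 h, 0 to 3 from 1 h to 2 h, 0 to 4 from 2 h to 4 h and 0 to 7 in the F test. The same fits called 0 to 26 of all genes at 1 h, 1 to 3248 at 2 h and 919 to 5559 at 4 h. They called 0 to 299 from 1 h to 2 h, 0 to 1468 from 2 h to 4 h and 27 to 4686 in the F test. The change of Klf6 and Klf10 relative to the naive KLFs ranged from -0.37 to -0.24 at 1 h, 0.78 to 1.55 at 2 h and 0.66 to 1.67 at 4 h when a clone was left out. It was lowest without clone b at 2 h and 4 h. A prior count of 0.5 moved it by less than the spread between clones. The alternatives for genes of the other lists and for markers were added after seeing the data. Depth limits Sp5, Sp8, Mef2c and Col1a1, with few counts per library, more than the 9 members.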
